A study of Mus musculus with 2 samples.

Results

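Co-stimulatory and activation surface proteins were read in RAW264.7 macrophages as 9 genes, *Cd80*, *Cd86*, *Icosl*, *Cd274*, *Pdcd1lg2*, *Cd69*, *Cd83*, *Cd44* and *Slamf7*. They were chosen by name for what their proteins do at the macrophage surface, and every probe that matched each gene was used. This gave 13 probes for 9 of the 20655 genes named on the arrays. All 13 probes were well above background on both arrays, by the scanner software's own flag, so all 9 genes were among the 16885 genes measured on both arrays.

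RAW264.7 is an established macrophage line from the ascites of a tumor induced by Abelson murine leukemia virus in an adult male BALB/c mouse. A single culture was treated with vehicle and a single culture with IR-61, a near-infrared fluorophore, at 10 μM, each for 24 h. The dose comes from a legend of the study and not from the sample labels. The RNA of each culture was labelled with Cy3 and hybridized to its own Agilent array. The slide and the scan were shared by the arrays. Since each condition has 1 array, the spread between cultures is unknown, and no test was made. Both cultures carried macrophage markers: *Csf1r*, the receptor for macrophage colony-stimulating factor, gave a signal of 95036 with vehicle and 139205 with IR-61. *Adgre1*, which encodes F4/80, gave 52489 and 149992.

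Macrophages speak to T cells through ligands of the B7 family. CD80, CD86 and ICOSL give co-stimulation, while PD-L1 and PD-L2, the products of *Cd274* and *Pdcd1lg2*, restrain the T cell. CD69 and CD83 appear at the surface of many leukocytes when they are activated or mature, CD44 binds hyaluronan, and SLAMF7 is a receptor of the SLAM family that binds itself on neighbouring cells.

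The IR-61 array was brighter as a whole, and its 75th percentile was 1.40-fold that of the vehicle array, or 0.49 on the log2 scale. Differences below are log2 signals after each array's own 75th percentile was subtracted, IR-61 minus vehicle. Without that scaling each log2 difference is 0.49 higher. IR-61-treated cells had 2-fold or more lower signal for 3 of the 9 genes (*Icosl*, *Cd69* and *Cd83*), or 33.3%, beside 1.39% of all genes measured on both arrays (235 of 16885). None of the 9 was higher by 2-fold or more, beside 1.99% of all genes (336 of 16885). The median difference was −0.12 over the 9 genes and 0.10 over all genes. The genes were chosen with earlier results of these data known, so the share of 3 in 9 describes the choice as well as the cells. Genes past 2-fold were 41.2% lower ones; this share was 54.2% with median scaling (295 lower and 249 higher), 52.1% with quantile normalization, 52.2% with loess, 51.4% with the deposited log2 values and 3.23% without scaling (72 and 2156).

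Among the co-stimulatory ligands, *Icosl*, whose product binds ICOS on T cells, gave a signal of 679 with vehicle and 142 with IR-61. It was lower with IR-61 by 6.69-fold after scaling (log2 difference −2.74). That is 11.9 times the SD expected of a difference between single spots at this brightness (0.23), an error taken from probes printed 10 times on each array. It covers noise within an array only. The fall stood at rank 11 of 16885 genes, ordered from the largest fall. In bulk RNA, fewer cells of a type and less RNA per cell cannot be told apart.

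*Cd86*, a ligand of CD28 and CTLA-4, gave 1928 with vehicle and 1643 with IR-61. Its difference was −0.72, or 1.65-fold lower, short of the 2-fold limit but 7.60 times its expected SD (0.095). It stood at rank 575 of 16885 genes from the largest fall, and without scaling it was −0.23, or 1.17-fold lower. *Cd80*, which binds the same receptors, had a brighter probe with 2315 and 3479 and a dimmer one with 189 and 212. The brighter probe differed by 0.099, hardly more than its expected SD of 0.095, and the dimmer by −0.32, with an expected SD of 0.23. The *Cd80* probes thus lay on either side of 0, and no direction is given for this gene. So the co-stimulatory ligands did not move together: *Icosl* was far lower, *Cd86* lower by less than the limit, and *Cd80* near 0.

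The co-inhibitory ligands stayed with the array as a whole, except with normexp background correction as planned (*Cd274* −0.75, *Pdcd1lg2* 2.14). *Cd274* gave 16469 with vehicle and 23471 with IR-61, a difference of 0.023 with an expected SD of 0.095. *Pdcd1lg2* gave 116 and 163, a ratio of 1.40, which is that of the arrays themselves, so that no difference was left after scaling. Neither gene differed by more than its expected SD after scaling, while both were brighter with IR-61 if the arrays were not scaled. The genes are next to each other on chromosome 19 in the gene table.

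Both early activation and maturation markers were lower with IR-61. *Cd69*, which encodes a C-type lectin that appears early after activation, gave 360 with vehicle and 75.6 with IR-61. It was 6.68-fold lower (−2.74, expected SD 0.23), at rank 12 of 16885, next to *Icosl*. *Cd83*, a marker of mature antigen-presenting cells, gave 26545 and 14685. It was 2.54-fold lower (−1.34, expected SD 0.095), at rank 109, and 1.81-fold lower without scaling, which is under the limit. Normexp background correction as planned turned *Icosl* to 0.18 and *Cd69* to 0.74, and *Icam1*, *Ms4a1* and *Cd79b*, which are described further on, to 0.62, 1.18 and 1.26. With the local background of 4 spots replaced in that fit, they were −2.22, −2.15, −2.05, −1.07 and −0.89.

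The adhesion and SLAM receptors were near 0 after scaling in their brightest probes, except with normexp background correction as planned (*Cd44* −0.78, *Slamf7* −0.46). Without scaling *Cd44* was 0.37 in that probe and *Slamf7* 0.61. *Slamf7* gave 3442 with vehicle and 5248 with IR-61, a difference of 0.12 with an expected SD of 0.095. *Cd44* had 4 probes. The brightest gave 5883 and 7612, a difference of −0.12 (expected SD 0.095). The next gave 2874 and 4894, a difference of 0.28, or 2.95 times its expected SD (0.095). The dimmer ones gave 67.6 and 87.1 (−0.12, expected SD 0.23) and 19.4 and 39.2 (0.53, expected SD 0.46). The *Cd44* probes differed in sign, so the gene has no single direction, and none of its probes passed 2-fold.

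**Figure D1:**
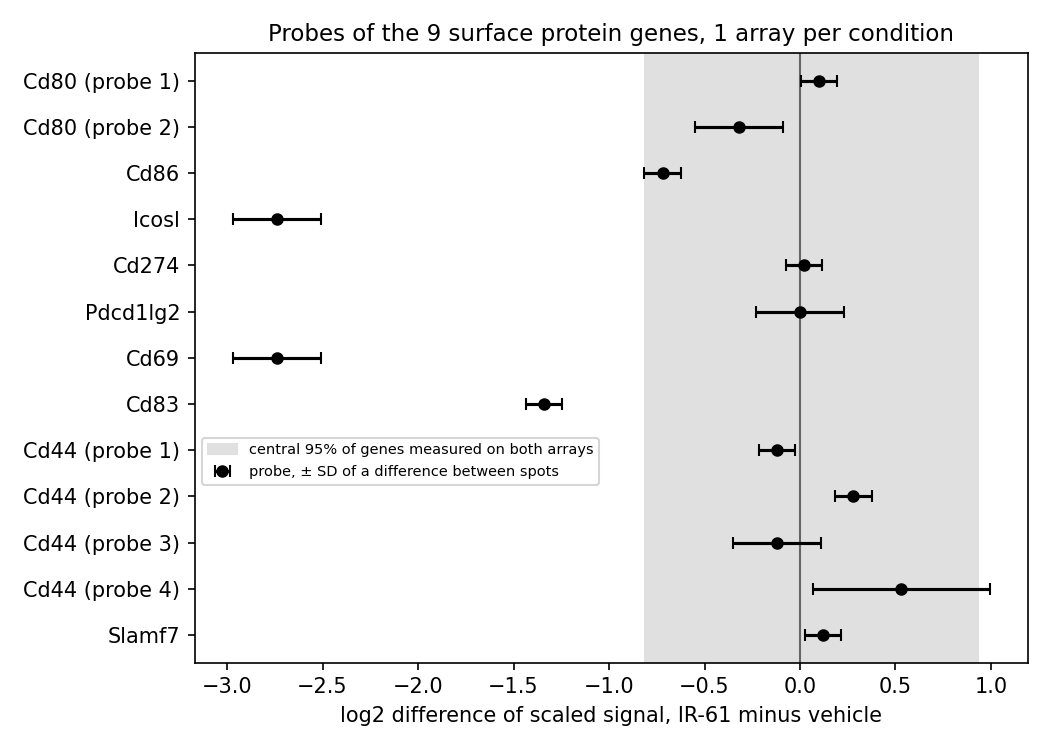
The log2 difference of scaled signal, IR-61 minus vehicle, is on the horizontal axis for each of the 13 probes of the 9 genes; bars are the SD expected of a difference between spots, and the grey band runs from −0.81 to 0.93, the central range of the genes measured on both arrays with equal shares cut off at either end. *Icosl*, *Cd69* and *Cd83* lie left of the band and the other probes within it.

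The place of the spots on the array was looked at for each of the 13 probes. The spots within 5 rows and 5 columns of each probe, between 67 and 102 spots that were well above background on both arrays, had median differences from −0.12 to 0.14. Around *Icosl* the median was 0.07, around *Cd69* 0.09 and around *Cd83* 0.06, so the surrounding spots did not share their falls. The scanner software's own error was 10.0% of the signal for *Icosl* with vehicle and 10.3% with IR-61, and 10.0% and 10.9% for *Cd69*.

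Genes that work with or resemble the members, and housekeeping genes, were read as 11 lists. Of a list of other B7-like and butyrophilin genes with the inhibitory receptor gene *Btla*, 6 of 8 were measured on both arrays and none passed 2-fold, with a median of 0.08. The lowest was *Btla* (−0.76, with signals of 36.1 and 30.0), and the highest *Btnl2* (0.26). Of the receptors of the B7 ligands, 3 of 5 were measured and none passed 2-fold. *Cd28*, the receptor of CD80 and CD86, gave 3492 with vehicle and 9052 with IR-61 (0.89), and *Rgmb*, which binds PD-L2, was the lowest at 0.48. For *Ctla4* and *Pdcd1*, neither array gave a signal well above background.

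The TNF superfamily held further co-stimulatory genes that were lower with IR-61. Of 8 measured, 2 were lower by 2-fold or more, beside 1.39% of all genes, and none was higher, with a median of −0.15. *Tnfsf9*, which encodes the 4-1BB ligand, gave 1907 with vehicle and 540 with IR-61, or 4.96-fold lower (−2.31). *Cd40*, the receptor through which T cells activate macrophages, gave 1783 and 1062, or 2.36-fold lower (−1.24), and fell short of 2-fold without scaling (−0.75) and with normexp as planned (−0.86). *Tnfsf18*, the GITR ligand, was the highest (0.73, 60.4 and 141).

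In the SLAM family and its adaptors, 1 of 9 measured genes was lower by 2-fold or more and none higher, beside 1.39% and 1.99% of all genes, with a median of −0.07. *Slamf8*, a SLAM family receptor of myeloid cells, gave 11923 and 8121, or 2.06-fold lower (−1.04), and fell short of 2-fold without scaling (−0.55). *Cd48*, the neighbour of *Slamf7* on chromosome 1, was the highest (0.43). *Sh2d1a*, which encodes the adaptor SAP, gave 45.2 with vehicle, and with IR-61 its signal was not well above background. Set against the lowest signal well above background on that array, it was at least 4.23-fold lower. Such bounds, of any size, were lower for 145 and higher for 740 of the 20655 named genes.

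CD69 holds the sphingosine-1-phosphate receptor S1PR1 inside the cell. The gene for that receptor, *S1pr1*, gave 2157 with vehicle and 821 with IR-61, or 3.69-fold lower (−1.88). *Myl9*, which encodes a ligand of CD69, gave 1009 and 2874, or 2.03-fold higher (1.02), and fell short of 2-fold with median scaling (0.94) and normexp as planned (0.77), and was past it in 7 of 10 settings that scaled the arrays. Of the 9 measured genes of this list of CD69 partners and C-type lectins, these were the ones past 2-fold, beside 1.39% lower and 1.99% higher over all genes, and the median was −0.17. Of the nearest 2 protein-coding genes on either side of *Cd69* on chromosome 6, 3 were measured on both arrays. *Clec2d* gave 5789 and 7828 (−0.053) and *Clec2e* gave 250 and 382 (0.12). *Clec12a*, a C-type lectin gene outside the list, gave 201 and 703 and was past 2-fold in the other direction from *Cd69* (1.32).

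None of 12 measured genes of MHC class II antigen presentation passed 2-fold, and their median was 0.09. *H2-Ab1*, a class II chain, gave 35877 with vehicle and 60824 with IR-61 (0.27). *Marchf1*, which encodes the ubiquitin ligase that removes MHC class II and CD86 from the surface and that CD83 opposes, was the highest. Its brightest probe, printed 10 times, had a mean scaled log2 signal of 2.05 ± 0.07 (SD, 10 spots) with vehicle and 2.86 ± 0.05 (10 spots) with IR-61, a difference of 0.81. The spots of that probe did not overlap between the arrays, nor did those of the housekeeping gene *Hprt* (4.54 ± 0.03 and 5.34 ± 0.04, SD of 10 spots each, a difference of 0.80). The same held for 46.2% of the 327 probes printed 10 times and well above background on both arrays, and such spots show noise within an array only. Of the 7 genes of the lists with a probe printed 10 times, the other 5 had overlapping spots. Among them was the housekeeping gene *Tbp*, with −0.09 in that probe and 0.54 in its brightest probe. The other probe of *Marchf1* differed by 0.17. *H2-Oa* was the lowest (−0.54, 29.8 and 28.7). *H2-Ob* differed by 0.07 in its brighter probe, while its dimmer one gave 23.6 with vehicle and did not stand well above background on the IR-61 array.

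Among 17 measured CD44 ligands, hyaluronan enzymes and membrane linkers none passed 2-fold, with a median of −0.09. *Mmp14*, which encodes a protease that sheds CD44, was the lowest (−0.97, 836 and 598), and passed 2-fold with median scaling (−1.05). *Has1*, a hyaluronan synthase gene (−0.93, 33.4 and 24.6), did so too (−1.01), and was past 2-fold in 4 of 10 settings that scaled the arrays, where *Mmp14* was in 2. *Has3*, of the same family, was among the highest (0.73, 38.6 and 90.1). Of 9 measured regulators of PD-L1 protein, *Btrc* was past 2-fold in its brightest probe (1.02, 153 and 437), beside 1.99% of all genes higher. It encodes a ubiquitin ligase subunit, its other probe differed by 0.33, and it was past 2-fold in 4 of 10 settings that scaled the arrays, down to 0.64 with normexp and 4 backgrounds replaced. *Cmtm4*, which encodes a protein that stabilizes PD-L1, differed by −0.24 in its brighter probe, while a dimmer one, not well above background with vehicle (11.8), gave 135 with IR-61. *Usp22*, a deubiquitinase gene, was the lowest (−0.86), and the median was near 0.

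Of 13 measured checkpoint receptors and ligands of macrophages, 1 was higher by 2-fold or more, beside 1.99% of all genes, and none was lower, with a median of 0.01. It was *Vsig4*, a B7-related complement receptor that restrains T cells, with 3137 and 9669 (2.20-fold higher, 1.14), and 0.47 with normexp as planned. *Cd24a* was the lowest (−0.50). Of 17 other measured activation surface proteins, 2 were lower by 2-fold or more in their brightest probe and none higher, beside 1.39% and 1.99% of all genes, with a median of −0.22. *Icam1*, the ligand of LFA-1, gave 514 with vehicle and 113 with IR-61, or 6.36-fold lower (−2.67). *Clec4e*, which encodes the lectin Mincle, gave 10067 and 3853, or 3.67-fold lower (−1.87), and the highest of the list was *Il2ra* (0.21). *Cd82*, a tetraspanin gene, differed by −0.37 in its brightest probe, while its dimmer probes were past 2-fold (−1.01 and −1.16). The 10 housekeeping genes ranged from −0.48 (*Ywhaz*) to 0.80 (*Hprt*), with a median of −0.09 and none past 2-fold.

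**Figure D2:**
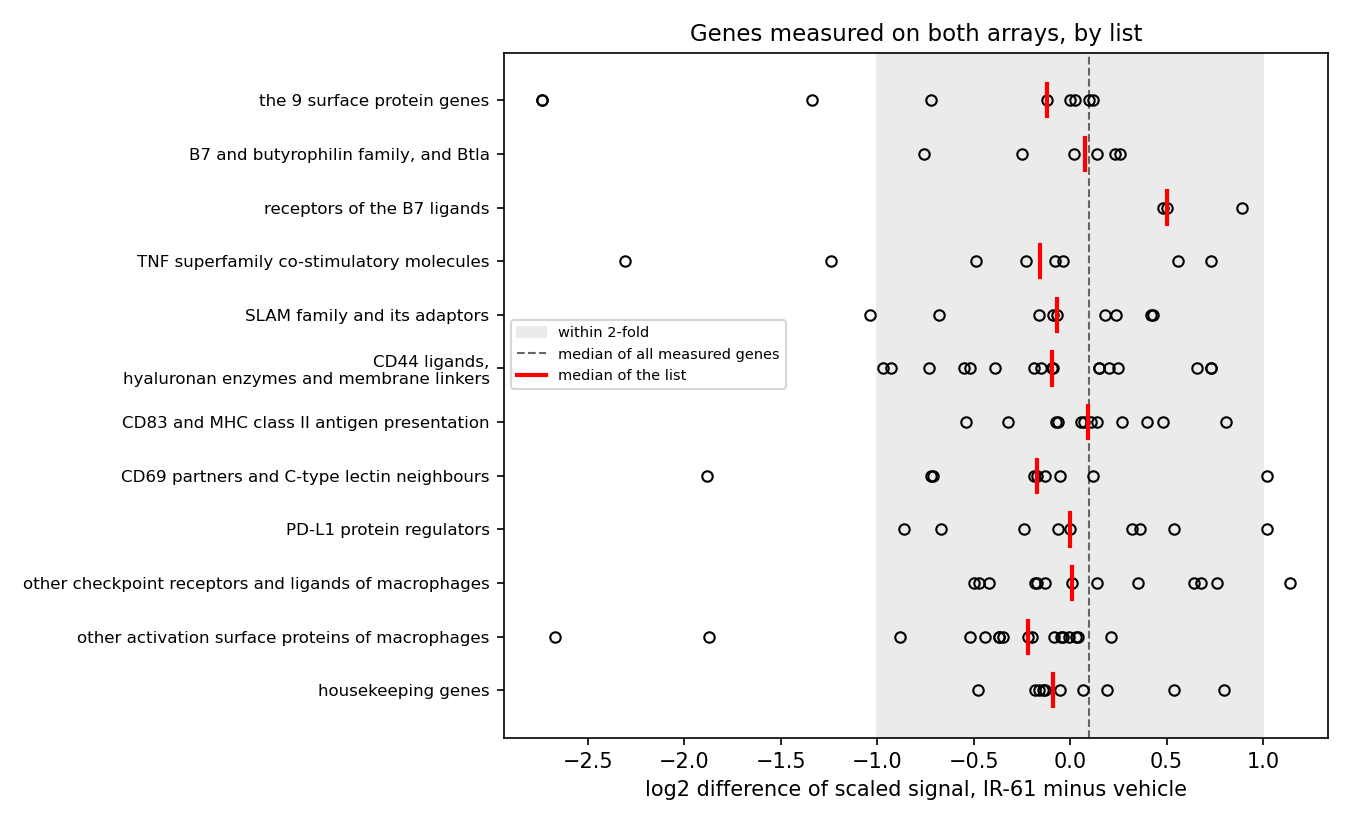
Each circle is a gene measured on both arrays, placed by its log2 difference of scaled signal, IR-61 minus vehicle; red marks are list medians, the dashed line is the median of all measured genes (0.10) and the grey band is the range within 2-fold. The genes farthest to the left are *Icosl* and *Cd69* of the 9 genes (both −2.74), *Icam1* (−2.67) and *Tnfsf9* (−2.31).

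Markers of other cell types were read on the same arrays. Of the macrophage markers reported here, *Adgre1* was higher by 2-fold or more (1.03) and fell short of it with median scaling (0.94) and normexp as planned (0.29), and was past it in 7 of 10 settings that scaled the arrays. *Spi1*, which encodes the factor PU.1, was the lowest at −0.83. Of 5 measured B cell markers 2 were lower by 2-fold or more, beside 1.39% of all genes: *Ms4a1* gave 353 with vehicle and 180 with IR-61 (−1.46), and *Cd79b* gave 289 and 190 (−1.09). Without scaling *Ms4a1* (−0.97) and *Cd79b* (−0.60) fell short of 2-fold. *Pax5* was the highest (0.36). The summed signal of the B cell markers, not scaled, was 907 with vehicle and 746 with IR-61. The brightest probe with vehicle was that of *Ms4a1*, which does not rank RNA levels between genes, and the part of such cells in the falls above was not tested. No T cell, NK cell or dendritic cell marker measured on both arrays passed 2-fold. The T cell markers ranged from −0.41 (*Cd3d*) to 0.72 (*Thy1*), the NK cell markers from −0.42 (*Klrb1c*) to 0.45 (*Gzma*) and the dendritic cell markers from −0.58 (*Zbtb46*) to 0.59 (*Ccr7*). Neither array gave a signal well above background for *Cd3g*, *Ncr1* and *Xcr1*. *Clec9a* was not well above background with vehicle and gave 45.5 with IR-61, at least 2.53-fold higher. Of the 20655 named genes, 740 had a bound on the higher side, of any size, and 145 on the lower side.

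Promoter sequences of RefSeq (GRCm38.p6) were available for 6 of the 9 genes, and none was found for *Cd69*, *Cd83* or *Cd86*. The 250 bases before each start were searched on both strands for the κB motif and for AP-1 (TGANTCA), CRE (TGACGTCA), GAS (TTCNNNGAA) and ISRE (GAAA, any 2 bases, GAAA) letters. The κB motif was found in *Icosl* and *Pdcd1lg2* and in 7.25% of 32817 promoters, and the AP-1 letters in *Cd80* and *Slamf7* and in 6.75%. No CRE, GAS or ISRE letters were found in the 6, beside 1.55%, 7.01% and 2.97% of all promoters, and no matches overlapped. Below are both promoters with a κB match, which is in capitals and begins 111 bases before the start of *Icosl* and 244 before that of *Pdcd1lg2*. *Icosl* was 6.69-fold lower with IR-61, and *Pdcd1lg2* did not differ by more than its expected SD after scaling. Each of these values rests on 1 probe, and any part of the motif in them was not tested. The first lies at chr10:78069118-78069367 and the second at chr19:29410669-29410918, both on the + strand.
*Icosl*: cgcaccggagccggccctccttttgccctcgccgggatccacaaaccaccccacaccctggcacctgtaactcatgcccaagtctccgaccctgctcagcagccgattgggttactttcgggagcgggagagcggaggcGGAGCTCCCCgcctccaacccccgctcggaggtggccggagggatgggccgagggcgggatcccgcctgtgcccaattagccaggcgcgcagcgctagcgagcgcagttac
*Pdcd1lg2*: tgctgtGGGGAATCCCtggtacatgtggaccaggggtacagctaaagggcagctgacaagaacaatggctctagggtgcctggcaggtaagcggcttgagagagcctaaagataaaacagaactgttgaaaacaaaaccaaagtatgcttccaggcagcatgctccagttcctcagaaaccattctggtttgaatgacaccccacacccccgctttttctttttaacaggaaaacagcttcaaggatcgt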

How the data were processed

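The authors deposited the intensity of each spot, background-subtracted and detrended by Agilent Feature Extraction, with 0/1 flags. The version is 11.0.1.1 per the file headers and 11.0.0.1 in the submitters' processing notes, while the study's methods give an earlier one. They also deposited log2 values per probe, whose quartiles were the same on both arrays (medians of 7.15 and 7.15), and how these were made is not given in the sources used here.

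Control and outlier-flagged spots were left out, log2 intensities were averaged per probe, and each array's 75th percentile was subtracted. Of 39419 probes, 27224 were named by RefSeq accession, without version, through a gene table of GRCm38.p6. A gene took its brightest probe, and 5473 genes had several. A probe not well above background on 1 array gave only a bound, its bright signal against the higher of its own and the lowest signal well above background on the dim array. On the vehicle array 77.6% of probes and on the IR-61 array 81.2% were well above background, and no spot was saturated. The number of arrays limits the precision. The expected SD came from those of 399 probes printed 10 times that were well above background on an array, by log2 intensity under 6, from 6 to 10, and above (67, 118 and 144 probes with vehicle, 57, 133 and 150 with IR-61).

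The members and lists were chosen with earlier results of these data known. Named genes are all members, genes of each list past 2-fold or with such a bound, and each list's largest fall and rise, up to 5 a list. *Clec2d*, *Clec2e*, *Clec12a*, *Has1*, *H2-Ab1*, *H2-Ob*, *Cmtm4*, *Tbp*, *Csf1r*, *Ctla4*, *Pdcd1*, *Cd3g*, *Ncr1* and *Xcr1* were named beside this rule, with their values seen. *Cd68*, *Ighm*, *Ly6c2*, *Ceacam1* and *Tmigd2* had no named probe here. Probe sequences were not analysed here, and 1 gene of the marker lists is not reported here. The steps were tested on simulated data. The dose is taken from the study's legend. Alternatives were other scalings, the deposited values, normexp, other filters, probe rules and a 3-fold limit. The software was R 4.3.3 (limma 3.58.1) and Python 3.11.15 (pandas 2.3.3, numpy 2.4.6, matplotlib 3.10.9).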

Additional observations from a re-analysis of the deposited data

How the results depend on the processing

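*Icosl*, *Cd69* and *Cd83* were lower by 2-fold or more in 10 of 10 settings that scaled the arrays (normexp as planned left out), with *Icosl* from −2.82 to −2.22, *Cd69* from −2.82 to −2.15 and *Cd83* from −1.42 to −1.33. *Cd86* ranged from −0.80 to −0.70, while *Cd80* (−0.11 to 0.12) and *Cd44* (−0.20 to 0.14) changed sign. Without scaling the median of the 9 genes was 0.37, *Cd83* was −0.85, and 72 genes were lower and 2156 higher by 2-fold or more. Normexp as planned gave 1 of the 9 lower and 1 higher, a median of −0.46, 464 genes lower and 7833 higher, and turned *Icosl* to 0.18 and *Cd69* to 0.74. The lower gene was *Cd83* (−2.05) and the higher *Pdcd1lg2* (2.14), with *Cd274* at −0.75. *Cd44* was at −0.78, *Slamf7* at −0.46 and *Cd80* at −0.35. That fit gave a background mean of −1570 with IR-61, where the surroundings of 4 spots were brighter than the spots. With the array's median background given to these 4 spots, a setting chosen after seeing the data, it was 12.7, *Icosl* was −2.22, *Cd69* −2.15, and 149 genes were lower and 124 higher. Counting every probe gave 451 lower and 612 higher, no filter on dim probes 440 and 921, and a 3-fold limit 64 and 50. A signal of at least 100 on both arrays, which leaves out *Cd69*, gave 160 lower and 156 higher. No paired analysis was possible because each group has 1 array. Dim probes have the widest spread between spots, which limits, among others, *Btla*, *Has1*, *Has3*, *H2-Oa*, *Sh2d1a*, *Clec9a* and the dimmest *Cd44* probe.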
